A study of Rattus norvegicus with 15 samples.

Results

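The 7 hippocampal RNA-seq libraries of a rat study of vagus nerve stimulation were selected on their measured level of Neurod6, a transcription factor gene of excitatory neurons of the cortex and hippocampus. Levels are in CPM, counts scaled to each library's total, after ribosomal RNA and 7SL RNA, the RNA of the signal recognition particle, had been removed. The 2 libraries with Neurod6 under 5 CPM, control libraries 1 and 2, are called the low-Neurod6 libraries here. The other 5, control library 3 and VNS libraries 1 to 4, had 20 CPM or more. The series holds 15 libraries in all, the remaining 8 being cortical and not used here. The values nearest the limits were 1.90 CPM in control library 2 and 99.9 CPM in VNS library 2, so no library lay between them. Since Neurod6 chose the libraries, every difference between the low-Neurod6 libraries and the others is given as a description and without a test.

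Rats of the VNS group received stimulation of the vagus nerve from an implanted device for 30 min a day on 4 days in a row. Controls carried a sham device. All rats of the hippocampal libraries, stimulated or not, had also been given a 10-min test of novelty preference from day 2 to day 4, and were killed right after the last session. Strain, sex and age were not given in the sources used here, nor whether each library came from 1 rat. Both low-Neurod6 libraries are controls, which leaves 1 control among the other 5. The part of the sham condition in any difference below cannot be told apart from the part of the libraries themselves.

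The hippocampus is built mainly of pyramidal neurons and dentate granule cells, which are glutamatergic and load their vesicles with the transporter VGLUT1, the product of Slc17a7. Neurons of the thalamus and brainstem rely mostly on VGLUT2, the product of Slc17a6. Regional transcription factors set up in the embryo, such as Tal1, Gata2 and Gata3 in GABAergic neurons of the midbrain and hindbrain, often stay on in the adult and mark where a neuron came from. In bulk tissue, fewer cells of a type and less RNA per cell cannot be told apart.

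The libraries held between 16728486 and 51463555 counts, and between 4301901 and 42620738 once ribosomal and 7SL RNA were taken out. Ribosomal RNA made up 8.85% and 7.12% of the counts in the low-Neurod6 libraries and 9.34% to 73.1% in the other 5, so both lay below all the others. VNS library 3 stood apart, with 73.1% ribosomal RNA and a further 27.5% of its remaining counts on 1 unnamed record beside the ribosomal genes, against 0.185% to 0.5% elsewhere. The part of ribosomal RNA content in the differences below was not tested. On the log2 scale, Pearson's r over 13057 transcript records was 0.966 between the low-Neurod6 libraries, 0.913 to 0.953 between a low-Neurod6 library and another, and 0.968 to 0.991 among the other 5. These correlations are across records, which are not independent and share library and depth. No pair of libraries was so alike in counts as to be the same library.

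Neurod6 itself (rn5 chromosome 4, 150564266 to 150567512, minus strand) stood at 1.13 CPM in control library 1 and 1.90 CPM in control library 2, from 32 and 58 counts. In control library 3 and VNS libraries 1 to 4 it stood at 137, 328, 99.9, 143 and 177 CPM. The mean of those 5 was 177 CPM ± 89.0 (SD, n = 5). Its relative Neurod2, which the choice of libraries did not use but which is measured in the same cells and libraries, stood at 0.708 and 2.16 CPM in the low-Neurod6 libraries and at 112, 202, 117, 94.1 and 141 CPM in the others, a 92.7-fold gap between the means. Both genes encode basic helix-loop-helix factors, a class that binds short E-box motifs, and the 250 bases upstream of each start are shown because these were the members with the largest differences in the lower direction. The sequences come from RefSeq, build GRCr8, minus strand (Neurod6 chr4:86180156-86180405, Neurod2 chr10:83824278-83824527), written 5′ to 3′ with each E-box of the form CAGATG in capitals.
Neurod6: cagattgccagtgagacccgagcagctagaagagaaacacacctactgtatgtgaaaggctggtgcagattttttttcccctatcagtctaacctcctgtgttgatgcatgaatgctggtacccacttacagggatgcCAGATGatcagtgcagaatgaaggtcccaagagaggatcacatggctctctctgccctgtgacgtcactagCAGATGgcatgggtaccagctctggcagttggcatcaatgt
Neurod2: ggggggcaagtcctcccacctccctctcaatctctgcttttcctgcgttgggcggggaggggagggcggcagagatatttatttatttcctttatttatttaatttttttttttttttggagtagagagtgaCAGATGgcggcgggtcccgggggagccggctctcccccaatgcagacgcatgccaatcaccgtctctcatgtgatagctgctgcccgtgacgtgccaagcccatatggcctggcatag
CAGATG, or CATCTG when read on the other strand, occurs 2 times upstream of Neurod6 and 1 time upstream of Neurod2. Windows of the same length held it for 13.96% of all 33469 promoters in the table and for 9.58% of those of the genes measured here. A match describes the letters only.

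A record was called set apart when both low-Neurod6 libraries lay on one side of all 5 others and the group means of log2(CPM + 0.5) differed by 2 or more, that is 4-fold. Of the 13057 records with 10 or more reads in 2 or more libraries, 211 (1.62%) were set apart with lower levels in the low-Neurod6 libraries and 167 (1.28%) with higher levels. Without any fold limit, 1158 records (8.87%) were lower in both than in all 5 others and 3404 (26.1%) were higher. This split depended on the scaling. With TMM-scaled library sizes, 256 records were set apart as lower and 131 as higher, and 2346 lay below and 2252 above all 5 others. The median over all records was 0.21 higher in the low-Neurod6 libraries on the log2 scale, and 0.02 with TMM, so small differences are read against that shift. None of the 34 miRNA precursor records was set apart.

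**Figure D1:**
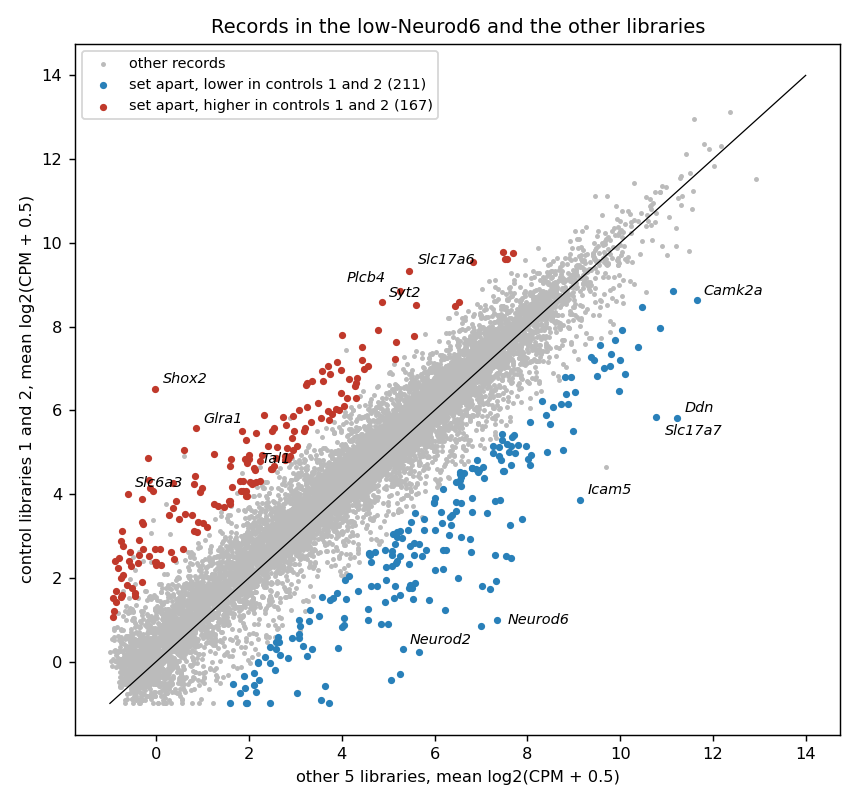
Each point is 1 of 13057 transcript records. The x axis is the mean log2(CPM + 0.5) of the 5 libraries with Neurod6 of 20 CPM or more, the y axis that of control libraries 1 and 2, and the line marks equal levels. Blue points are the 211 records set apart as lower and red points the 167 set apart as higher, with Neurod6 and Neurod2 far below the line and Shox2, Glra1 and Slc17a6 far above it.

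Genes of forebrain excitatory neurons and telencephalic transcription factors were the list with the most members on the low side. Of its 23 records, 19 were lower in both low-Neurod6 libraries than in all 5 others and 0 were higher. The shares over all records were 8.87% lower and 26.1% higher. The median difference was -2.88 on the log2 scale, against 0.21 for all records. Neurod6 itself is 1 of the 19, and its place was fixed by the choice of libraries. Bhlhe22, a basic helix-loop-helix repressor of cortical projection neurons, was at 4.04 and 6.33 CPM against 159.9 to 296. Fezf2, a zinc finger factor of deep-layer neurons, was at 0.815 and 0 CPM against 22.7 to 59.7, and the T-box factor gene Tbr1 was at 2.59 and 1.28 CPM against 49.0 to 105. Prox1, a homeobox gene of dentate granule cells, did not separate the groups: 156 CPM in control library 1 lay within the 135 to 187 CPM of the others, whereas control library 2 had 27.7 CPM.

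Genes with wide gaps on the lower side also encoded receptors, secreted proteins and synaptic proteins. Mas1, the receptor for angiotensin-(1-7), was at 0.354 and 0.131 CPM (10 and 4 counts) against 27.6 to 41.2 CPM, a ratio of the means of 137. Rspo2, a secreted enhancer of Wnt signalling, was at 0.602 and 0.754 CPM against 38.1 to 100.3 CPM, with VNS library 1 the highest. Icam5, the dendritic adhesion protein telencephalin, was at 15.6 and 12.8 CPM against 321 to 692 CPM. Klk8, which encodes the secreted protease neuropsin, had no count in either low-Neurod6 library and 7.33 to 18.5 CPM in the others, which makes it at least 129.5-fold lower when 3 counts are allowed in each low-Neurod6 library. Ddn, the postsynaptic protein dendrin, was at 91.6 and 34.3 CPM against 1587 to 2879.9 CPM, and Chrm1, the M1 muscarinic receptor gene, at 6.13 and 1.15 CPM against 103 to 174 CPM. Mas1, Rspo2 and Icam5 were alike in the low-Neurod6 libraries within a few-fold, while Chrm1 was 5.34 times higher in control library 1.

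The lists for the hippocampus's own cell types pointed the same way, less uniformly. Of 17 pyramidal cell records, 9 were lower and 0 higher, beside 8.87% lower and 26.1% higher over all records. Their median was -0.90 on the log2 scale. Wfs1, a CA1 marker of the endoplasmic reticulum, was at 52.1 and 20.5 CPM against 222 to 772 CPM, and Rgs14, a CA2 signalling regulator, at 6.98 and 4.00 CPM against 83.9 to 415 CPM. Fibcd1, also a CA1 marker, parted the low-Neurod6 libraries from each other: 6.16 CPM in control library 1 and 101 CPM in control library 2, against 143 to 434 CPM. Of 13 dentate granule cell records, 6 were lower and 1 higher, median -1.23. With TMM these counts became 7 and 0. C1ql3, a secreted synaptic organiser of mossy fibres, was at 11.5 and 10.95 CPM against 95.3 to 165 CPM. Its relative C1ql2, on the same list, overlapped. It was at 6.48 and 16.9 CPM against 7.25 CPM in VNS library 1 and 72.5 to 99.7 CPM in the rest. Of 22 records of forebrain glutamatergic synapse genes, 18 were lower and 0 higher, median -1.75. Camk2a, the alpha subunit of the calcium- and calmodulin-dependent kinase II, was at 618 and 252 CPM against 2631 to 3995 CPM, and Nrgn, the calmodulin-binding protein neurogranin, at 57.3 and 132 CPM against 748 to 1334 CPM.

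Immediate early genes, which neurons transcribe within minutes of activity, were lower in part. Of 29 records, 14 lay below all 5 others, 1 above and 14 overlapped, median -1.17. Over all records, 8.87% were lower and 26.1% higher. Differences of the group means in this list ran from -4.03 to 1.07 on the log2 scale. The members with the largest falls follow. Egr3, a zinc finger factor, was at 2.90 and 1.84 CPM against 37.6 to 53.9 CPM. Its relative Egr4 was at 4.25 and 2.10 CPM against 16.3 to 44.6 CPM. The orphan nuclear receptor Nr4a3 was at 9.95 and 4.98 CPM against 95.6 to 124 CPM, and is also counted among the telencephalic transcription factors. Of 19 forebrain interneuron records, 7 were lower and 5 higher, the higher share being near the 26.1% of all records. Lhx6 and Dlx1, homeobox genes of interneurons, were lower in both, at 2.27 and 12.1 CPM in control library 1 and 0.0656 and 0.131 CPM in control library 2. In the others they ranged from 9.47 to 17.7 and 14.5 to 19.5 CPM. Calb2, which encodes the calcium buffer calretinin, belongs to the same list and was higher, at 78.2 and 227 CPM against 7.30 to 44.9 CPM.

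**Figure D2:**
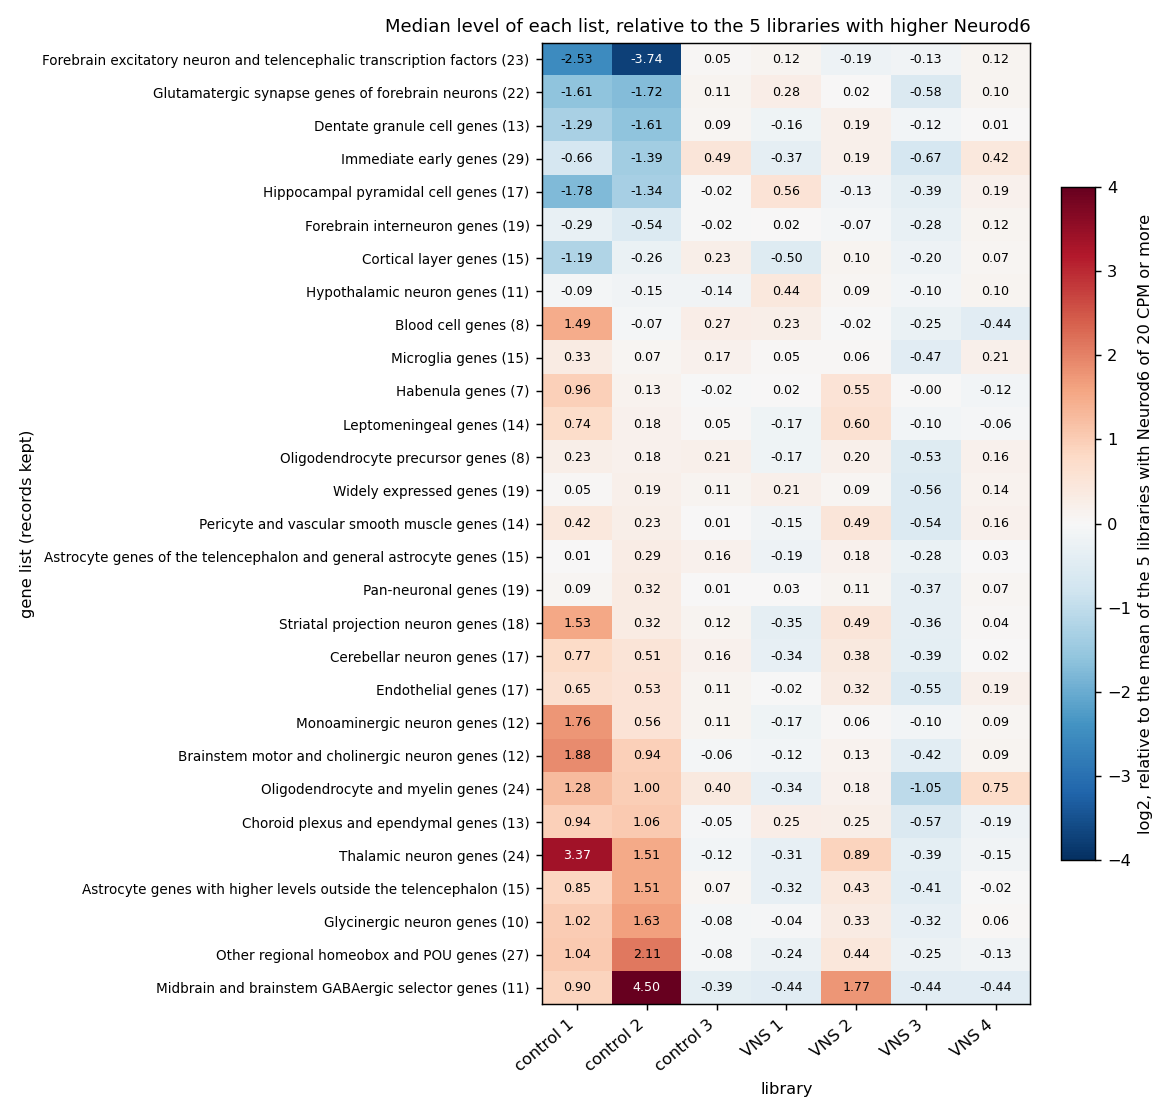
Each row is a gene list with its number of records in brackets and each column a hippocampal library; a cell gives the median log2 level of the list relative to the mean of the 5 libraries with Neurod6 of 20 CPM or more. Control libraries 1 and 2 are lowest for telencephalic transcription factors (-2.53 and -3.74), control library 1 is highest for thalamic genes (3.37), and control library 2 for GABAergic selector genes (4.50).

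The vesicular glutamate transporters separated the groups in opposite directions. Slc17a7 (rn5 chromosome 1, 102226219 to 102237165) stood at 413 CPM in control library 1 and 7.41 CPM in control library 2. In control library 3 and VNS libraries 1 to 4 it stood at 1857, 2439, 1738, 1150.4 and 1793 CPM, so both low-Neurod6 libraries were below the others but differed 55.7-fold between themselves. Slc17a6 (rn5 chromosome 1, 108040511 to 108080511) stood at 660.4 and 629 CPM in the low-Neurod6 libraries and at 62.1, 15.9, 113, 16.7 and 79.6 CPM in the others. The low-Neurod6 libraries were alike for it and 11.2 times the mean of the others. Per kilobase of record length, Slc17a6 made up 44.6% of both transporters together in control library 1 and 97.7% in control library 2, against 0.327% to 3.18% in the others.

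Other genes with wide gaps on the higher side were Shox2, a homeobox gene, at 151 and 55.0 CPM against 0, 0.0235, 6.92, 0.465 and 0 CPM in control library 3 and VNS libraries 1 to 4. Only VNS library 2 of those 5 had more than 1 CPM, and the ratio of the means was 69.6. Dlk1, a delta-like membrane protein, was at 60.8 and 17.4 CPM against 0.540 to 1.86 CPM. Plcb4, a phospholipase C of thalamic and cerebellar neurons, was at 692 and 304 CPM against 22.3 to 73.3 CPM. Syt2, a fast calcium sensor of transmitter release, was at 425 and 344 CPM against 7.44 to 56.6 CPM, and Kcnj16, an inward-rectifier potassium channel, at 99.6 and 149 CPM against 7.70 to 23.1 CPM. Bnc2, a zinc finger factor, was at 6.34 and 58.5 CPM against 0 to 1.15 CPM.

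**Figure D3:**
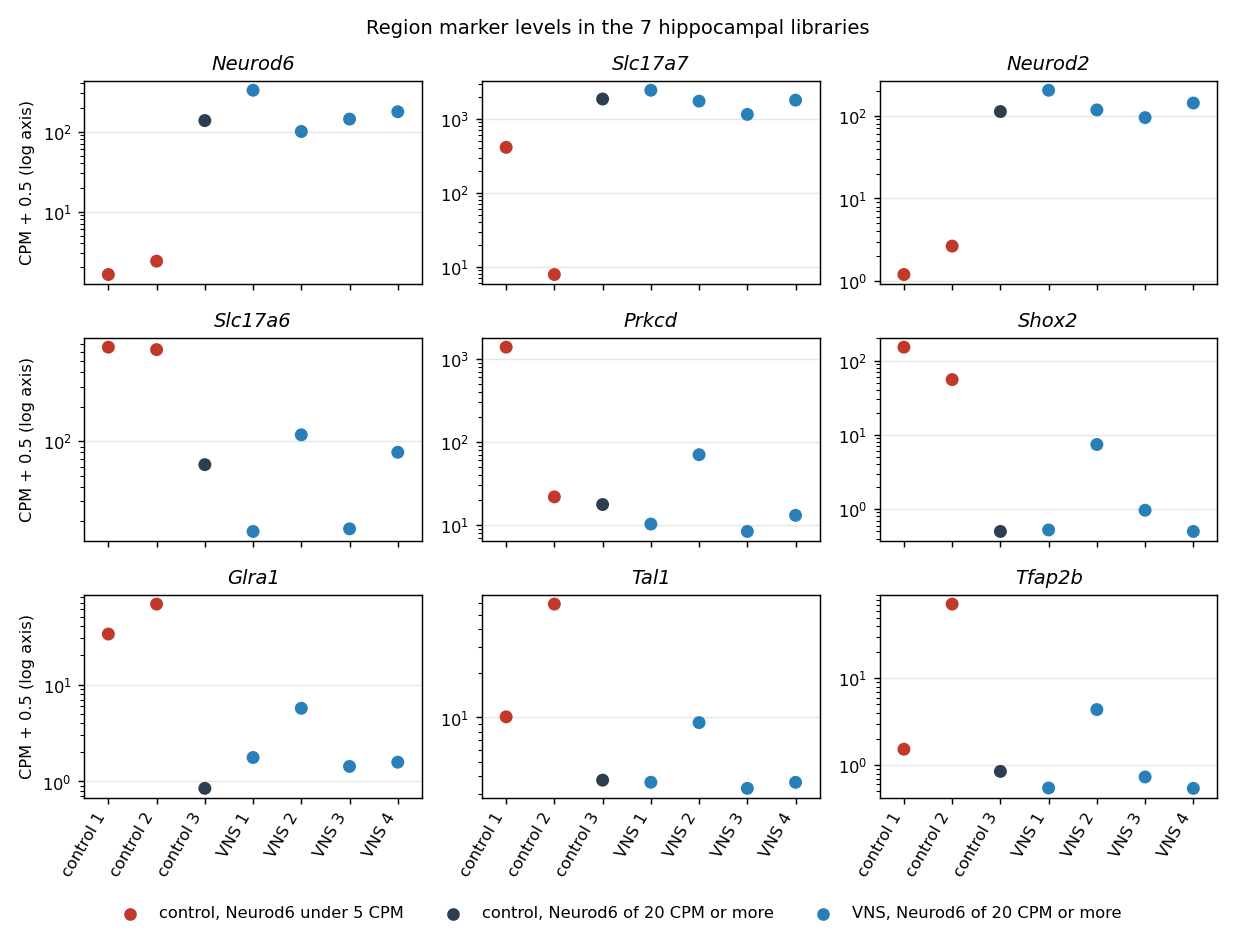
CPM + 0.5 on a log axis for 9 genes in each of the 7 hippocampal libraries; red points are control libraries 1 and 2, black control library 3 and blue the VNS libraries. Prkcd is high only in control library 1 (1381 CPM) and Tal1 and Tfap2b are highest in control library 2 (58.7 and 71.0 CPM), while VNS library 2 is the highest of the other 5 for Slc17a6, Prkcd, Shox2, Glra1, Tal1 and Tfap2b.

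Among 24 records of thalamic neuron genes, 12 were higher in both low-Neurod6 libraries than in all 5 others and 2 were lower, with a median of 2.79. The shares over all records were 26.1% higher and 8.87% lower. Summed over the thalamic list, the low-Neurod6 libraries held 4908 and 1638 CPM, against 406 to 872 CPM in the others. Lef1, a Wnt-pathway factor, was at 47.5 and 25.4 CPM against 2.604 to 8.23 CPM. The zinc finger factor gene Zic1 was at 121 and 26.3 CPM against 4.18 to 17.2 CPM, and the forkhead gene Foxp2 at 53.9 and 63.1 CPM against 0.868 to 14.7 CPM. Glra1, the alpha-1 subunit of the glycine receptor (rn5 chromosome 10, 40687417 to 40784393), stood at 32.7 and 67.1 CPM, and in control library 3 and VNS libraries 1 to 4 at 0.349, 1.27, 5.19, 0.930 and 1.08 CPM. The ratio of the means was 28.3. Glra1 belongs to a list of 10 glycinergic neuron records, 8 of which were higher and 0 lower, median 1.33. The 8 are not particular to glycinergic neurons: Gad1, Gad2 and Slc32a1 are also counted as higher in the forebrain interneuron list. Slc6a9 is also counted among the astrocyte genes with higher levels outside the telencephalon. Slc6a5, the neuronal glycine transporter that defines neurons releasing glycine, was not among the 8 higher records. It stood at 7.58 and 7.05 CPM against 1.20 to 11.7 CPM, so the groups overlapped.

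Of 27 further regional homeobox and POU records, 15 were higher and 1 lower, median 1.66, beside 26.1% higher and 8.87% lower over all records. Irx2 was at 8.78 and 30.2 CPM against 0 to 6.42 CPM, and Ebf3, a helix-loop-helix factor gene, at 10.1 and 80.8 CPM against 0 to 4.61 CPM. The Hox genes that pattern the hindbrain and spinal cord gave little: of 22 listed, 15 had a record in the table and 1, Hoxd1, passed the read minimum, at 0.142 and 0.328 CPM in the low-Neurod6 libraries and 0 to 0.659 CPM in the others. The thalamus is itself forebrain, and thalamic genes were high in control library 1, so the libraries are named by their Neurod6 level and not as with or without forebrain.

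Genes of glia and other cells were compared in the same way, beside 8.87% lower and 26.1% higher over all records. For counts with TMM, the matching numbers were 2346 lower and 2252 higher of all 13057 records. Oligodendrocyte and myelin genes were higher in both low-Neurod6 libraries for 21 of 24 records and lower for 0, median 1.14, and 0 of them reached the 4-fold limit. With TMM the count was 16 and the median 0.93. Their summed level was 19291 and 15957 CPM against 3291 to 11789 CPM. Tf, the iron carrier transferrin, was at 2676 and 1863 CPM against 251 to 1318 CPM, with VNS library 3 the lowest. The share of myelin RNA was thus higher in both low-Neurod6 libraries, and its part in the neuronal differences was not tested. Among the other 5 it was highest in VNS library 4, at 11789 CPM, and VNS library 2 had 8548 CPM. Astrocyte genes known for higher levels outside the telencephalon were higher for 9 of 15 records and lower for 1, median 1.11. Slc6a11, the astrocytic GABA transporter GAT-3, was at 564 and 991 CPM against 78.6 to 208 CPM, and Agt, the angiotensin precursor, at 540.2 and 1129 CPM against 120.4 to 346 CPM. Telencephalic and general astrocyte genes were split, with 3 lower and 5 higher of 15, and their median changed sign with the scaling (0.05, and -0.16 with TMM). Gfap, the astrocyte filament protein, belongs to the list with higher levels outside the telencephalon but overlapped, at 1352 and 865 CPM against 863 to 3161 CPM. Its mean difference was -0.62, and differences in that list ran from -1.42 to 4.14 on the log2 scale. Microglia genes were higher for 1 of 15 and lower for 0, and their median of 0.19 became -0.02 with TMM. Endothelial genes were higher for 8 of 17 records and lower for 0, also with TMM, with medians of 0.60 and 0.40. None of 8 blood cell records separated the groups.

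Genes shared by most neurons lay on both sides. Of 19 pan-neuronal records, 5 were lower and 7 higher, median 0.28, beside 8.87% lower and 26.1% higher over all records. With TMM 7 were lower and 5 higher, median 0.07, beside 2346 lower and 2252 higher of all 13057 records. Rbfox3, the neuronal nuclear protein NeuN, was lower, at 37.0 and 55.9 CPM against 107 to 145 CPM. Vamp1, a vesicle fusion protein, was higher, at 845 and 1047 CPM against 223 to 388 CPM, as was Nefh, the heavy neurofilament subunit of large axons, at 1042 and 585 CPM against 150.4 to 237 CPM. Gad1 and Gad2, the GABA-synthesising enzymes, were at 480.0 and 301 CPM in control library 1 and 709.5 and 449.8 CPM in control library 2, above the 227 to 351 and 88.6 to 203 CPM of the others. Of 19 widely expressed genes, 0 were lower and 3 higher, median 0.23, and with TMM 1 was lower and 3 higher, median 0.03.

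The low-Neurod6 libraries also differed from each other. With 1 library a side there is no replicate check, and the intervals given are exact 95% intervals for counting error only, too narrow because both mates of a read pair were counted. At 4-fold or more, 115 records (0.881%) were higher in control library 1 and 124 (0.95%) in control library 2. Of the 378 records set apart from the other libraries, 203 lay within 2-fold between the low-Neurod6 libraries and 64 differed by 4-fold or more.

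Control library 1 carried the thalamic genes more strongly: 9 of the 24 thalamic records were 4-fold or more higher there and 1 was higher in control library 2. Prkcd (rn5 chromosome 16, 6588990 to 6608725), protein kinase C delta, abundant in thalamic relay neurons, stood at 1381 CPM in control library 1 and 21.4 CPM in control library 2. In control library 3 and VNS libraries 1 to 4 it stood at 17.2, 9.81, 69.8, 7.90 and 12.6 CPM, so control library 2 lay inside the range of the others and Prkcd was not set apart. Its ratio between control libraries 1 and 2 was 64.6 (95% interval 59.8 to 69.9). Synpo2, an actin-binding protein on the thalamic list, had a ratio of 32.5, from 313 and 9.64 CPM, and was likewise not set apart. Gabrd and Wnt9b are not on the thalamic list. Gabrd, the delta subunit of extrasynaptic GABA-A receptors, had a ratio of 25.0, from 239 and 9.57 CPM. Wnt9b, a secreted Wnt ligand, stood at 204 and 3.97 CPM against 0.465 to 5.43 CPM in the others.

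Control library 1 also held genes of other cell groups. Blood cell genes had a median 1.63 higher in control library 1 than in control library 2 on the log2 scale, with Hbb, a haemoglobin beta chain, at 222 and 74.9 CPM against 23.5 to 84.3 CPM in the others, and the part of blood in the differences was not tested. Slc6a3, the dopamine transporter, stood at 128 CPM there, 1.51 CPM in control library 2 and 0 to 0.249 CPM in the others, and the ratio was 85.0 (63.6 to 116). Th, tyrosine hydroxylase, the first enzyme of dopamine synthesis, stood at 82.7 and 2.79 CPM against 0.680 to 2.34 CPM. Six3, a homeobox gene of the anterior brain, stood at 29.0 and 2.72 CPM against 0.165 to 0.465 CPM. It belongs to a list of striatal projection neuron genes and also to the thalamic list, where it is already counted above. Chrnb3, a nicotinic receptor subunit, stood at 25.3 and 1.64 CPM against 0 to 1.15 CPM. Trh, thyrotropin-releasing hormone, stood at 82.2 and 1.18 CPM, but VNS library 1 had 70.2 CPM and the remaining 4 libraries 0.165 to 1.86 CPM. Ttr, transthyretin, the main product of the choroid plexus, stood at 35.2 and 0.787 CPM against 0.582 to 4.88 CPM. Isl1, a LIM-homeobox gene, had 400 counts in control library 1, 2 in control library 2, 4 in VNS library 1 and 0 in the other 4 libraries. The read minimum in 2 libraries removed it from the counts above. It was picked out after its values were seen.

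Control library 2 was higher than control library 1 for most listed selector genes of midbrain and brainstem GABAergic neurons. The list does not name the cells of that library. Slc17a6 made up 97.7% of both vesicular glutamate transporters there, per kilobase of record length, and Hox genes of the hindbrain gave little. Of 11 records in the list of GABAergic selector genes, 8 were 4-fold or more higher in control library 2 and 0 in control library 1, and the summed level was 246 CPM there, 39.3 CPM in control library 1 and 11.4 to 40.0 CPM in the others. Tal1 (rn5 chromosome 5, 137656871 to 137670144) stood at 9.60 CPM in control library 1 and 58.7 CPM in control library 2, and at 3.24, 3.12, 8.73, 2.79 and 3.12 CPM in control library 3 and VNS libraries 1 to 4. Both lay above the others, but control library 1 only just above VNS library 2. Gata3 stood at 2.83 and 20.4 CPM against 0 to 3.95 CPM, and Gata2 at 7.12 and 15.1 CPM against 3.97 to 7.44 CPM, so for both genes control library 1 lay within the range of the others. Otx2, a homeobox gene of the midbrain and diencephalon, stood at 6.16 and 45.7 CPM against 0 to 5.60 CPM, Lhx5 at 1.74 and 13.2 CPM against 0 to 0.494 CPM, and Sox14 at 0.815 and 23.9 CPM against 0 to 2.31 CPM.

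Further records with large differences toward control library 2 were of several kinds. Tfap2b, an AP-2 factor, stood at 1.03 CPM in control library 1 and 71.0 CPM in control library 2, with 0.349, 0.0469, 3.87, 0.233 and 0.0415 CPM in control library 3 and VNS libraries 1 to 4, and control library 2 had 69.1 times the level of control library 1 (48.0 to 103). Pax7, a paired-box gene of the dorsal midbrain, had 2 counts in control library 1 and 681 in control library 2, a ratio of 315 (86.9 to 2608). Dmbx1, another homeobox gene of the midbrain, stood at 0.354 and 23.6 CPM, Pou4f2, a POU-domain gene, at 0.567 and 25.6 CPM, and Barhl1 at 1.098 and 20.8 CPM. Among genes that encode no transcription factor, Epyc, a proteoglycan, stood at 0.354 and 27.7 CPM, a ratio of 78.2 (42.3 to 164), and Gabrr2, a rho subunit of GABA-A receptors, at 0.567 and 16.9 CPM, a ratio of 29.7. Pou4f3, also a POU-domain gene, had 5 counts in control library 1, 208 in control library 2 and 0 in the other 5 libraries. It too fell under the read minimum and was picked out after its values were seen.

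**Figure D4:**
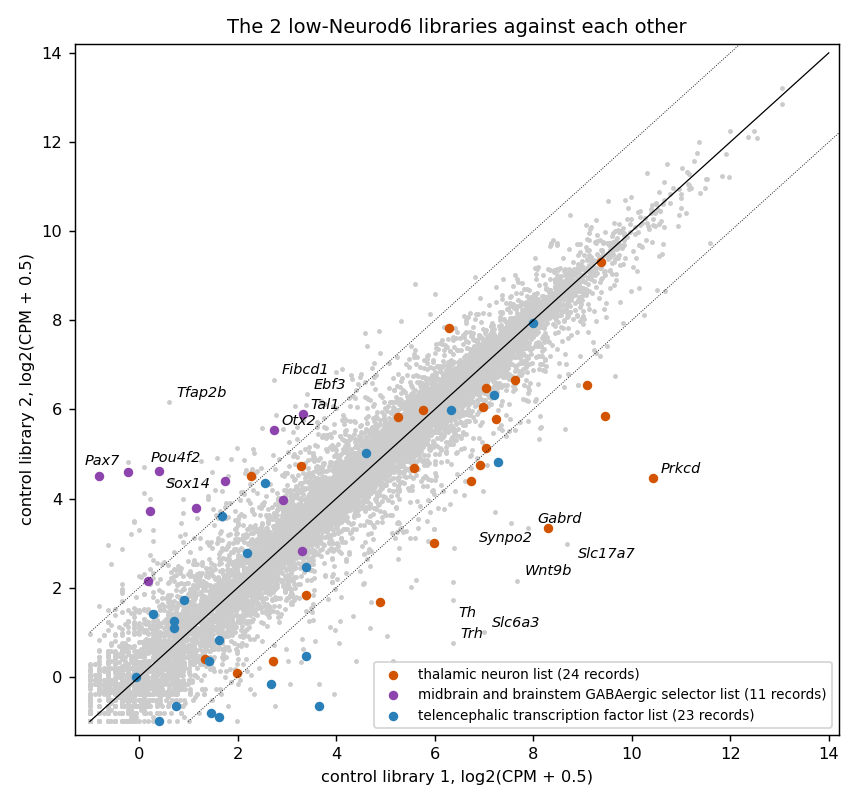
Each point is 1 of 13057 records, with log2(CPM + 0.5) in control library 1 on the x axis and in control library 2 on the y axis; the solid line marks equal levels and the dotted lines 4-fold differences. Orange points (24 thalamic records) lie mainly below the solid line, purple points (11 GABAergic selector records) above it, and blue points are 23 telencephalic transcription factor records.

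The 5 libraries with high Neurod6 were not uniform either. For the 167 records set apart as higher in the low-Neurod6 libraries, VNS library 2 was the highest of the 5 in 131, and in 124 with TMM. The median level of these records was 2.79 in VNS library 2 on the log2(CPM + 0.5) scale and 1.24 to 2.20 in the other 4, against 4.89 and 4.54 in control libraries 1 and 2. By list, VNS library 2 stood 1.77 above the mean of the 5 for GABAergic selector genes and 0.89 above it for thalamic genes, and the other 4 stood at -0.44 to -0.39 and -0.39 to -0.12. Its Neurod6 of 99.9 CPM was the lowest of the 5. Among the 211 records set apart as lower, VNS library 3 was the lowest of the 5 in 116, but in 34 with TMM, where VNS library 2 was lowest in 88.

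**Figure D5:**
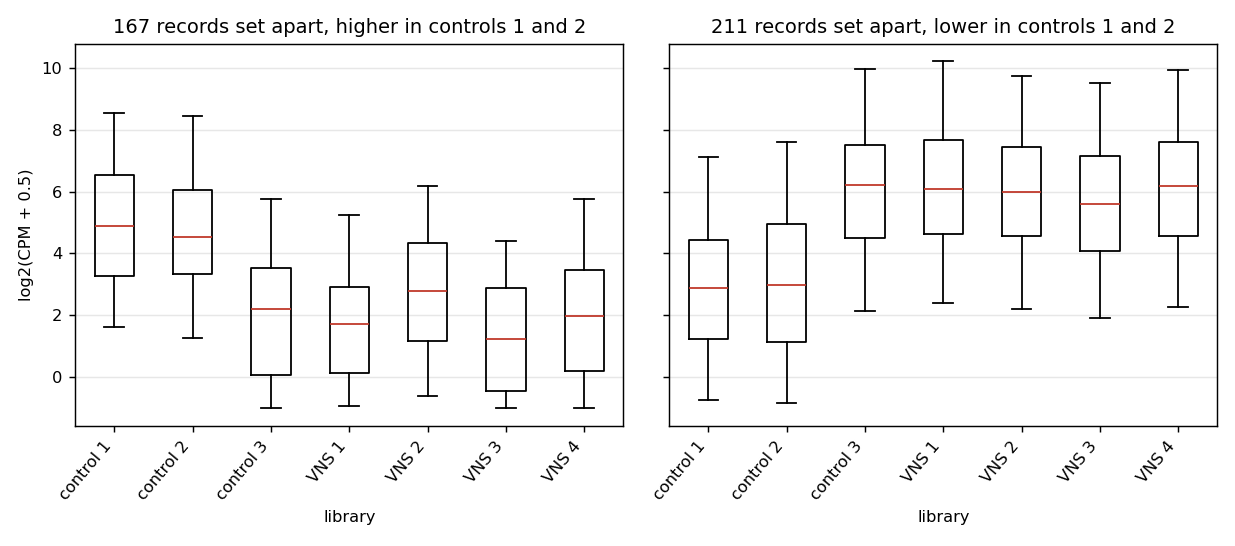
Box plots of log2(CPM + 0.5) per hippocampal library for the 167 records set apart as higher (left) and the 211 set apart as lower (right) in control libraries 1 and 2; boxes span the quartiles, red lines the medians and whiskers the 5th to 95th percentile of records. In the left panel the median of VNS library 2 (2.79) is the highest of the 5 libraries with high Neurod6.

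The study's own hippocampal contrast, 4 VNS against 3 sham libraries, includes both low-Neurod6 libraries among its controls. By edgeR's quasi-likelihood test with Benjamini-Hochberg adjustment, 0 of 12728 records (0%) passed an adjusted p of 0.05, and 1537 had an unadjusted p under 0.05. Ribosomal and 7SL records were kept in for this contrast, and leaving them out gave 0 calls among 12810 records. DESeq2 called 16 and limma-voom 0. Without control libraries 1 and 2, 0 of 13111 records (0%) passed, 105 had an unadjusted p under 0.05, and 1 control library remained, assumed to vary like the VNS libraries. Leaving out control library 3 instead, so that both remaining controls were the low-Neurod6 libraries, gave 1377 calls, 807 higher and 570 lower in VNS. Those calls compare nearly the same libraries as above and are no support for it.

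The log2 fold changes of that contrast were different with and without the low-Neurod6 libraries. Telencephalic transcription factors had a median of 1.38 (VNS minus sham) over all 7 libraries and 0.11 without control libraries 1 and 2. Thalamic genes had -2.28 and 0.41, and GABAergic selector genes -2.99 over 10 records and 3.05 over 11. VNS library 2 was also left out, in an alternative chosen after seeing the data. The medians were then 0.25 over 23 telencephalic, 0.04 over 22 thalamic and 0.27 over 3 selector records. Fewer thalamic and selector records were kept than before, so those medians are over different sets of records. Oligodendrocyte genes had -0.72 and -0.24, and immediate early genes 0.09 and -0.37. For all records the medians were -0.01 and 0.01. Slc17a6 was at -2.86 ± 0.87 (SE) on the log2 scale with an edgeR adjusted p of 0.402 over 7 libraries, lower in VNS, and at -0.08 ± 0.81 without control libraries 1 and 2.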

How the data were processed

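Ribo-depleted total RNA of rat hippocampus was sequenced as 100 bp paired-end reads, per the labels' protocols, which name a stranded kit. The deposited counts per RefSeq transcript record were made by the authors with featureCounts 1.4.6-p2 on rn5, per the file headers, which show neither a strand nor a paired-end option. Even numbers made up 79.32% of counts from 2 to 11, so mates were counted separately. FastQC 0.10.1, Trimmomatic, Bowtie2, SAMtools 0.1.19, Subread and edgeR are listed in the submitters' processing notes. Genes overlapping on opposite strands cannot be told apart.

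Ribosomal records and 7SL RNA were removed, counts were scaled to CPM, and records with 10 or more reads in 2 or more of 7 libraries were kept (13057 of 18278, 712 without a symbol). Symbols came from RefSeq (GRCr8, names only) and matched 17339 records. Logs used CPM + 0.5. Low against other libraries has no test, since a measured value chose them. VNS against sham used edgeR 4.0.16 quasi-likelihood (TMM, filterByExpr, two-sided) in R 4.3.3, on counts with ribosomal and 7SL records kept in. DESeq2 1.42.0 and limma-voom 3.58.1 were alternatives. The edgeR script was tested on simulated data. The labels do not say that libraries are separate animals, so p-values measure only the spread between these samples.

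The libraries, markers and 30 gene lists were chosen with earlier results of these data known. Named genes are 6 region markers, Gata2, Gata3, Slc6a5 and Gfap, the 15 set-apart records with the widest gap in each direction, the 12 largest differences between control libraries 1 and 2 in each direction, and up to 4 members with the largest difference in each list. Not all are printed, and some genes are not reported here. Tcf7l2 and Hoxb2, also in the rule, had no record. Camk2a, Zic1, Lef1, Gad1, Prox1, Isl1 and Pou4f3 were added after their values were seen. The alternatives were other fold limits, pseudocounts, scalings and filters, counts summed per gene, and leaving out each library. The cortical table was not used.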

Additional observations from a re-analysis of the deposited data

Results flagged for a closer look

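Among the 4 VNS hippocampal libraries, the highest or lowest value was tested for distance from the others with Dixon's criterion for 74 named genes and 3 library measures. This picked out 21 of 77. Chance flags about 1 in 20 groups, but that share is no yardstick here: the genes share libraries, and many were named for high levels in control libraries 1 and 2 and are at or near 0 in the VNS libraries, where any count in 1 library meets the criterion. VNS library 2 was the library concerned in 17 cases, and in 16 it was the highest of the 4. Its values were 69.8 CPM for Prkcd, 44.9 for Calb2, 17.2 for Zic1, 8.73 for Tal1, 6.92 for Shox2, 6.42 for both Irx2 and Epyc and 5.60 for Otx2. They were 5.43 CPM for Wnt9b, 5.19 for Glra1, 4.61 for Ebf3, 3.87 for Tfap2b, 2.47 for Pax7, 2.31 for both Dmbx1 and Sox14, and 0.494 for Lhx5. For Nr4a3 it was the lowest, at 95.6 CPM.

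VNS library 1 was the highest for Trh, at 70.2 CPM, and for Rspo2, at 100.3 CPM. VNS library 3 was the highest for Pou4f2, at 1.39 CPM, and had the lowest share of 7SL RNA, 1.198% of counts. No cause was tested for any of these values.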

How the results depend on the processing

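The count of set-apart records, 378, became 1450 at a 2-fold limit and 121 at 8-fold, and stayed within 1.5 times of 378 under the other alternatives run, for example 549 with a pseudocount of 0.1 CPM and 254 with 2 CPM. Leaving out 1 library at a time gave 357 to 512. The 239 records that differed between control libraries 1 and 2 became 1196 at 2-fold, 57 at 8-fold, 410 with a pseudocount of 0.1 CPM and 150 with 2 CPM. The share of set-apart records that were lower, 55.82%, was 66.15% with TMM, 65.36% with DESeq2 size factors (251 lower, 133 higher), and 24.87% when ribosomal and 7SL RNA were kept in (96 and 290). It was 39.03% at a 2-fold limit (566 and 884), 49.91% with a pseudocount of 0.1 CPM (274 and 275), 47.46% without control library 1 (196 and 217) and 49.54% without VNS library 2. Without the limit on fold, the lower share of 25.38% became 51.02% with TMM, 49.38% with DESeq2 size factors, 4.05% with ribosomal RNA kept in, 35.78% without the record beside the ribosomal genes (an alternative chosen after seeing the data, 231 lower and 153 higher set apart) and 37.11% without VNS library 3 (233 and 142 set apart). VNS against sham gave 0 calls except with DESeq2 (16), and from 0 to 1377 when 1 library was left out, the higher value without control library 3. For the named genes under TMM or without 1 library, 82 values moved by more than the spread within groups and 510 did not, and no set-apart gene changed sign. No paired analysis was possible because the labels give the libraries no shared replicate numbers. VNS library 3, with 4301901 usable counts, limits low genes most: 3 counts there are 0.697 CPM.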
